A study of Mus musculus with 2 samples.

Results

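The 10 genes described here encode the main products of intestinal goblet cells, the mucus-secreting cells of the gut epithelium, together with 1 of their transcription factors. They are Muc2, Zg16, Agr2, Tff3, Fcgbp, Clca1, Spink4, Spdef, Retnlb and Itln1, chosen by name, and all 10 were found among the 55246 loci of the deposited count table. The table holds 1 RNA sequencing library from wild-type mice (WT) and 1 from mice with a Foxp3 allele named Exon2KO in the labels and Foxp3∆2 in the series title. Both libraries came from cells labelled Tregs (regulatory T cells, the Foxp3-dependent subset of CD4 T cells that restrains immune responses) of the colon lamina propria, the connective tissue under the epithelium, of female mice. Age, strain background, sorting markers and the number of mice behind each library are not given in the labels. The labels name neither a Cre nor a treatment.

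Goblet cells secrete the gel that separates colonic bacteria from the epithelium. Its scaffold is the mucin MUC2, which is folded with the help of AGR2 in the endoplasmic reticulum, packed into granules with FCGBP, CLCA1, ZG16 and the trefoil peptide TFF3, and released into the gut lumen. The transcription factors ATOH1 and SPDEF direct the secretory fate, and type 2 cytokines such as IL-13 are known to induce the secreted defence protein RELMβ, the product of Retnlb. Regulatory T cells are not known for making mucus.

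Retnlb, Clca1 and Spink4 fell in the Exon2KO library, by 9.17-fold for Spink4 to 15.3-fold for Clca1, with Retnlb between them. Zg16 was 3.28-fold higher. These folds are ratios of scaled reads with no prior count, whereas a prior count of 2 enters each log2 ratio below and draws it towards 0. Muc2 and Tff3 were scarce in both libraries. The 10 genes held 551 reads in WT, 0.00338% of all reads (95% Wilson interval 0.00311 to 0.00368), and 405 reads in Exon2KO, 0.00263% (0.00238 to 0.00290). Each genotype has 1 library, so no difference below was set against a spread between samples, and all intervals cover counting error only. A change in bulk RNA does not separate fewer cells of a type from less RNA per cell. The labels name no molecular identifiers, so copies of 1 molecule could not be told from separate molecules. The tests and intervals here count each read as independent. Copies would make the intervals too narrow and the p-values too small.

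The libraries held 16281133 (WT) and 15412425 (Exon2KO) reads assigned to genes. T cell markers were abundant in both: Cd3e had 5154 and 5262 reads, Cd3g 16671 and 15187, Cd4 4593 and 5367, Ptprc 12969 and 10700, Ctla4 79358 and 132229, and Il2ra 2968 and 2370. Foxp3 reads numbered 6991 and 20946, a whole-gene count that does not test the deletion of 1 exon. Of the other Treg markers listed, Ikzf2 fell from 8476 to 440 reads and Tnfrsf18 from 34363 to 11626. Plasma cell genes were also abundant, with 978688 and 850724 reads over 5 genes, led by Igkc (447269 and 400030) and Igha (408840 and 334179), and Sdc1 was called higher (510 and 1213). Of 5 myeloid genes 3 were tested and 0 were called, with Lyz2 (317 and 405) and Cd14 (122 and 116) first by reads. All 6 stromal and endothelial genes were tested and 2 were called higher, Cdh5 (0 and 15) and Lum (6 and 20), named after their values were seen, while Pecam1 (917 and 834) and Dcn (184 and 189) were not called. Of the defining factors of the goblet lineage, Spdef had 5 and 8 reads and Atoh1 had 0 in both libraries, where 3 reads, the limit that such a count sets, would be 1.84e-05% of the total in WT and 1.95e-05% in Exon2KO.

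Each of 17363 genes that reached 10 reads when the libraries were added together was tested by a 2-sided exact binomial test, with Benjamini-Hochberg adjustment over all of them. Called here means an adjusted p below 0.05 together with a ratio of at least 2-fold in either direction. The comparison is between 2 libraries, and says nothing on the spread within a genotype. Over all tested genes, 7.2% were called higher and 6.61% lower in Exon2KO. Among the 10 goblet genes 9 had enough reads for the test, 1 was called higher (Zg16), 3 were called lower (Clca1, Retnlb and Spink4) and 5 were not called. Itln1 was under the read minimum. The 9 tested genes had a median log2 ratio of -0.93, beside 0.0035 over all genes tested.

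RefSeq promoter sequences (build GRCm38.p6) matched 5 of the 10 genes by symbol: Muc2, Agr2, Fcgbp, Spdef and Itln1. Zg16, Tff3, Clca1, Spink4 and Retnlb were not matched. The 250 bases before the RefSeq start are shown for Muc2 and Agr2, the mucin and its folding partner, because their ratios lay on opposite sides of 0. Neither gene was called, and no called goblet gene had a matched promoter. The RefSeq start of Agr2 lies downstream of the start in the deposited table, so the last bases of that window fall inside the deposited gene span. Capitals mark matches, on either strand, to motifs searched for in each window. The TATA box was spelled TATAA. The GATA factor motif was AGATAA. The FOXA motif was TGTTTA. The CDX motif was TTTATNG. The E-box was CAGCTG. The core shared by XBP1 and ATF6 was ACGTG. The ETS core was GGAAG, and an SPDEF-type core was CGGAT.
Muc2, plus strand, chr7:141690090-141690339: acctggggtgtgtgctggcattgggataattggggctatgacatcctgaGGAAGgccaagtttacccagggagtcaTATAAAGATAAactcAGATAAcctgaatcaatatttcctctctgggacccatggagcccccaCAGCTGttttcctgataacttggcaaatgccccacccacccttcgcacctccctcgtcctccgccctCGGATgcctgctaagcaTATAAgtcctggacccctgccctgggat
Agr2, plus strand, chr12:35992675-35992924: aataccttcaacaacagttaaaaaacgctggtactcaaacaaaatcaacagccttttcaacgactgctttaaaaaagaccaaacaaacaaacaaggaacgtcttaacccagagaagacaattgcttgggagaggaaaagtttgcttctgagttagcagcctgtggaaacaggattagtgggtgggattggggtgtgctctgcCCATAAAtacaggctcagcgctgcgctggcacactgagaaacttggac

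The Muc2 window held a TATA box match beginning 174 and another 28 bases before the RefSeq start, GATA matches at 169 and 159, an E-box at 112, an ETS core at 201 and the SPDEF-type core at 45. The TATA box match at 174 and the GATA match at 169 adjoin, so their capitals form 1 run. The Agr2 window held 1 match, to the CDX motif, 48 bases before the RefSeq start. Of 32851 promoter windows of this length, 22.8% held the TATA box letters, 9.99% the GATA motif, 9.81% the CDX motif, 13.0% the E-box, 13.4% the SPDEF-type core and 64.1% the ETS core. The FOXA motif was in 12.0% of the windows and in 0 of the 5 matched goblet promoters, while the XBP1 and ATF6 core was in 16.6% and in 1 of the 5, Spdef. Of the same 5, 4 held the TATA box letters and 3 the ETS core. The CDX motif and the E-box were each in 2, and the GATA motif and the SPDEF-type core each in 1. Matches to short motifs are descriptions of these letters and not of binding.

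Muc2 (ENSMUSG00000025515, chromosome 7, 141690340 to 141754693, plus strand, GRCm38) encodes the gel-forming mucin of the colon. It had 41 reads in WT and 21 in Exon2KO. The log2 ratio was -0.93 (95% interval -1.82 to -0.20) with an adjusted p of 0.032 in the binomial test of the 2 libraries. This was short of the 2-fold threshold, so Muc2 was not called. The authors' deposited table gives Muc2 a log2 fold change of -0.99 with an adjusted p of 0.563. GENCODE M21 tags the locus as fragmented and its longest transcript there has 2926 bases, so the reads cover only the assembled parts of a long mucin. The other gel-forming mucins were near the floor, with 2 and 9 reads for Muc6, 2 and 0 for Muc5b, and 0 reads in both libraries for Muc5ac and Muc19.

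The mucus-binding and mucus-processing genes went in different directions. Fcgbp (chromosome 7, 28071236 to 28120862, plus strand), which encodes a large mucus protein linked to MUC2, had 14 reads in WT and 4 in Exon2KO, at a log2 ratio of -1.44 (-3.89 to -0.16). Its adjusted p in the binomial test was 0.065, and it was not called. In the authors' deposited table its adjusted p is 0.439. Counting all outcomes no more likely than the observed one, in place of doubling the smaller tail, gave an adjusted binomial p of 0.044 and a call. Of its 50-base transcript windows, 6.42% also occur in transcripts of other genes, so part of its reads may be uncertain.

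Clca1 (ENSMUSG00000028255, chromosome 3, 145003817 to 145032776, minus strand) encodes a secreted metalloprotease that cleaves the mucus network. It had 105 reads in WT and 7 in Exon2KO, and its log2 ratio was the lowest of the 9, at -3.60 (-5.28 to -2.84). Its adjusted p was 1.07e-22 in the binomial test, and without the prior count its level was 15.3-fold lower in Exon2KO. The authors' deposited table gives Clca1 a log2 fold change of -3.91 with an adjusted p of 1.3e-07. Its paralogs had few reads: Clca3a1 had 15 and 6, Clca3b 0 and 9, Clca4b 0 and 6, and Clca2, Clca3a2 and Clca4a had 0 in both.

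Zg16 (ENSMUSG00000049350, chromosome 7, 127050156 to 127087328, minus strand) encodes a small lectin that binds the wall of Gram-positive bacteria and keeps them away from the epithelium. It had 41 reads in WT and 137 in Exon2KO, the one called increase among the goblet genes. The log2 ratio was 1.67 (1.20 to 2.25), with an adjusted p of 7.1e-12 in the binomial test. The authors' deposited table gives 1.71 with an adjusted p of 0.0142. Both loci that overlap Zg16 in the table had 0 reads.

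**Figure D1:**
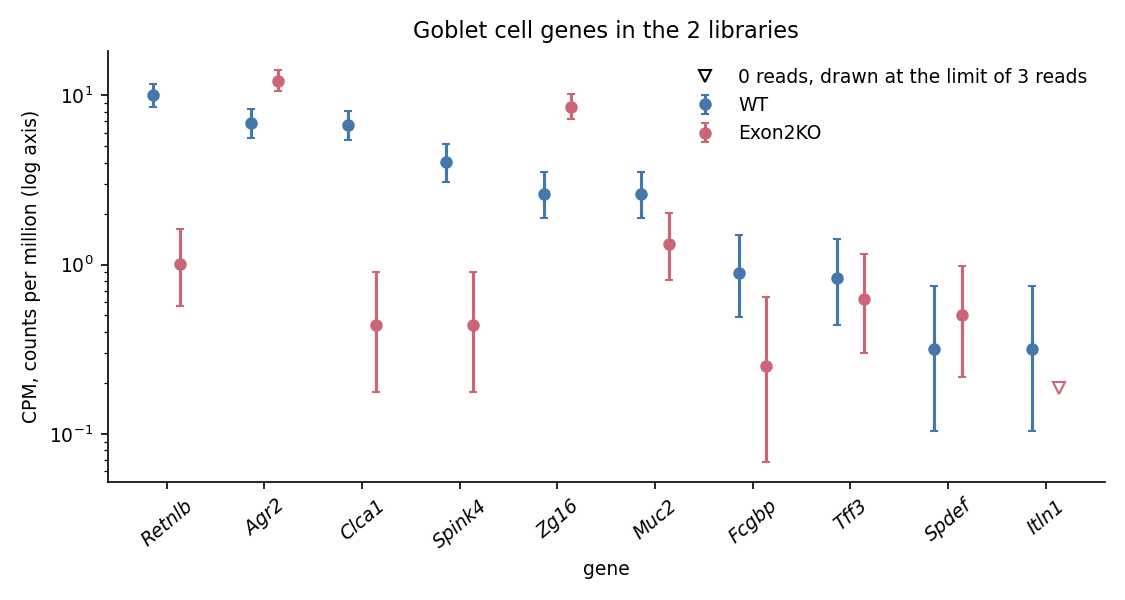
Level of each of the 10 goblet cell genes in the WT and Exon2KO libraries, in CPM (the usual CPM scale, from TMM-scaled library totals) on a log axis, with 95% Poisson intervals of the count. Retnlb, Clca1 and Spink4 have intervals that lie apart with WT higher, Agr2 and Zg16 have intervals that lie apart with Exon2KO higher, and Itln1 had 0 reads in Exon2KO (open triangle at the level of 3 reads).

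Agr2 (ENSMUSG00000020581, chromosome 12, 35992907 to 36004087, plus strand), the disulfide isomerase needed to fold MUC2, had 107 reads in WT and 195 in Exon2KO. Its log2 ratio was 0.83 (0.49 to 1.19) with an adjusted p of 6.35e-06 in the binomial test, and it missed the call because the ratio was under 2-fold. The authors' deposited table gives Agr2 0.84 with an adjusted p of 0.442, above 0.05. Broad folding genes of the endoplasmic reticulum, which plasma cells and other secretory cells use heavily, were measured beside it. All 13 of them were tested, 0 were called, 10 had a log2 ratio above 0 and 3 below, and their median was 0.13. The calls need a 2-fold difference, which none of the 13 reached. Hspa5, with 82025 and 79593 reads, and Pdia3, with 16611 and 17908, held the most reads among them. Whether their ratios differ from that of Agr2 was not tested.

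Among the small secreted peptides, Tff3 (chromosome 17, 31125306 to 31129646, minus strand), the intestinal trefoil factor that promotes epithelial repair, had 13 reads in WT and 10 in Exon2KO. No difference was detectable at this depth (log2 ratio -0.34, -1.75 to 0.90). Spink4 (ENSMUSG00000028415, chromosome 4, 40920052 to 40931395, plus strand), a Kazal-type peptide made by goblet cells, fell from 63 reads to 7. Its log2 ratio was -2.88 (-4.57 to -2.07), with an adjusted p of 1.41e-11 in the binomial test, and without the prior count its level was 9.17-fold lower. The authors' deposited table gives Spink4 -3.17 with an adjusted p of 1.03e-04.

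Retnlb (ENSMUSG00000022650, chromosome 16, 48816856 to 48818892, plus strand) encodes RELMβ, which kills Gram-negative bacteria and acts in defence against worms. It was the goblet gene with the most reads in WT, 157, and had 16 in Exon2KO. The log2 ratio was -3.17 (-4.16 to -2.58), with an adjusted p of 1.66e-29 in the binomial test. The authors' deposited table gives -3.31 with an adjusted p of 3.28e-07. Its paralogs were at the floor, with 0 and 1 reads for Retnla, 2 and 0 for Retn and 0 in both for Retnlg. None of the 50-base windows of the Retnlb, Clca1, Spink4, Zg16, Agr2, Tff3, Muc2 and Spdef transcripts occurs in a transcript of another gene.

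Itln1 (chromosome 1, 171518122 to 171535294, minus strand), the lectin intelectin 1 that binds microbial sugars, had 5 reads in WT and 0 in Exon2KO. It was under the read minimum and not tested, and the 95% counting interval of its log2 ratio reached up to 0.099 and so included 0. Spdef (chromosome 17, 27714352 to 27728955, minus strand), the ETS-family factor of goblet cell maturation, had 5 and 8 reads, and a difference was not detectable (0.49, -1.14 to 2.61). In the authors' deposited table the adjusted p is 0.467 for Itln1 and 1 for Spdef and for Tff3. Itln1 and Spdef were too scarce for a direction to be read from them.

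The make-up of the goblet reads is given as a description, since the genes were grouped by the direction of their ratios after these were seen. Retnlb, Clca1 and Spink4 held 325 of the 551 reads in WT, 59.0%, and 30 of the 405 in Exon2KO, 7.41%. Agr2 and Zg16, grouped in the same way, held 26.9% of the 551 reads and 82.0% of the 405. The shares of Muc2, 7.44% (5.53 to 9.94) and 5.19% (3.42 to 7.80), had overlapping intervals.

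**Figure D2:**
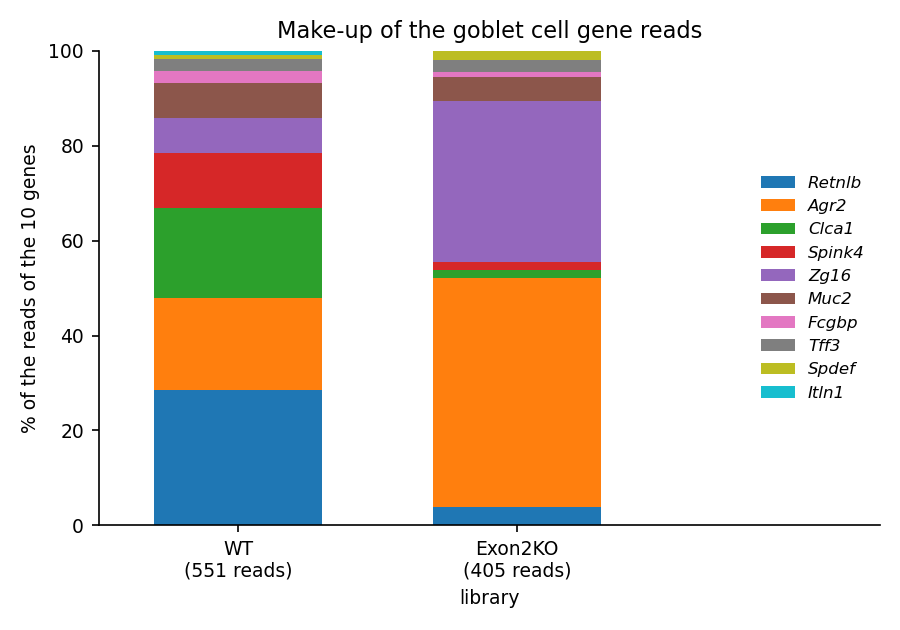
Share of the reads of the 10 goblet cell genes taken by each gene, in percent, for the WT library (551 reads) and the Exon2KO library (405 reads). Retnlb, Clca1 and Spink4 fill 59.0% of the WT bar and 7.41% of the Exon2KO bar, where Agr2 and Zg16 fill 82.0%.

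Levels between genes were compared on the deposited FPKM scale, which divides by gene length. In WT, Retnlb was first at 14.3 FPKM (95% counting interval 12.2 to 16.7), followed by Spink4 at 8.37 (6.43 to 10.7) and Agr2 at 5.26 (4.31 to 6.35). The intervals of these 3 lay apart from each other. Zg16, Clca1 and Tff3 followed at 2.07, 1.76 and 1.67 with overlapping intervals. Muc2 (0.365), Itln1 (0.278), Spdef (0.138) and Fcgbp (0.0846) came last, and each overlapped its neighbour in the order. In Exon2KO, Agr2 was first at 9.49 (8.21 to 10.9) and Zg16 was next at 6.85 (5.75 to 8.10). Retnlb (1.44), Tff3 (1.27) and Spink4 (0.922) had overlapping intervals, and Spdef (0.218), Muc2 (0.185), Clca1 (0.116) and Fcgbp (0.024) were lower, though the interval of Spdef (0.094 to 0.430) still met that of Spink4 (0.371 to 1.90). For scale, Cd3e stood at 80.1 FPKM in WT and 81.1 in Exon2KO, and 2878 protein-coding genes had a higher FPKM than Retnlb in WT.

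Other genes of the goblet programme, from a list of 23, went both ways. All 23 were in the table, 16 were tested, 3 were called higher and 6 lower, and the median log2 ratio was -0.43. Ang4, an angiogenin-family antimicrobial peptide of goblet and Paneth cells, fell from 80 reads in the WT library to 3 (log2 ratio -4.06, -7.07 to -3.16). Tff1, the trefoil factor best known from the stomach, fell from 237 to 48 reads (-2.28, -2.81 to -1.88). Sytl2, a synaptotagmin-like protein of secretory granules, fell from 728 to 277 (-1.41, -1.63 to -1.22). Pla2g10, a secreted phospholipase, went the other way, from 5 to 58 (3.08, 2.20 to 5.19). Gfi1, a transcription factor used in both secretory and lymphoid cells, had 183 and 168 reads (-0.15, -0.46 to 0.16).

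The remaining called genes of that list were named after their values were seen. Foxa1 fell from 52 to 9 reads, Sval1 had 13 and 0, and Creb3l4 had 11 and 0. With the 0 set to 3 reads and the WT count taken as exact, Sval1 was 4.41-fold and Creb3l4 3.74-fold lower. The counting intervals of their log2 ratios allowed smaller falls, reaching up to -1.63 for Sval1 and -1.35 for Creb3l4. Nlrp6, an inflammasome sensor linked to mucus release, rose from 3 to 22 reads, and Rep15 rose from 3 to 16. The called genes of the list thus stood on both sides of 0, as the 10 goblet genes did.

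**Figure D3:**
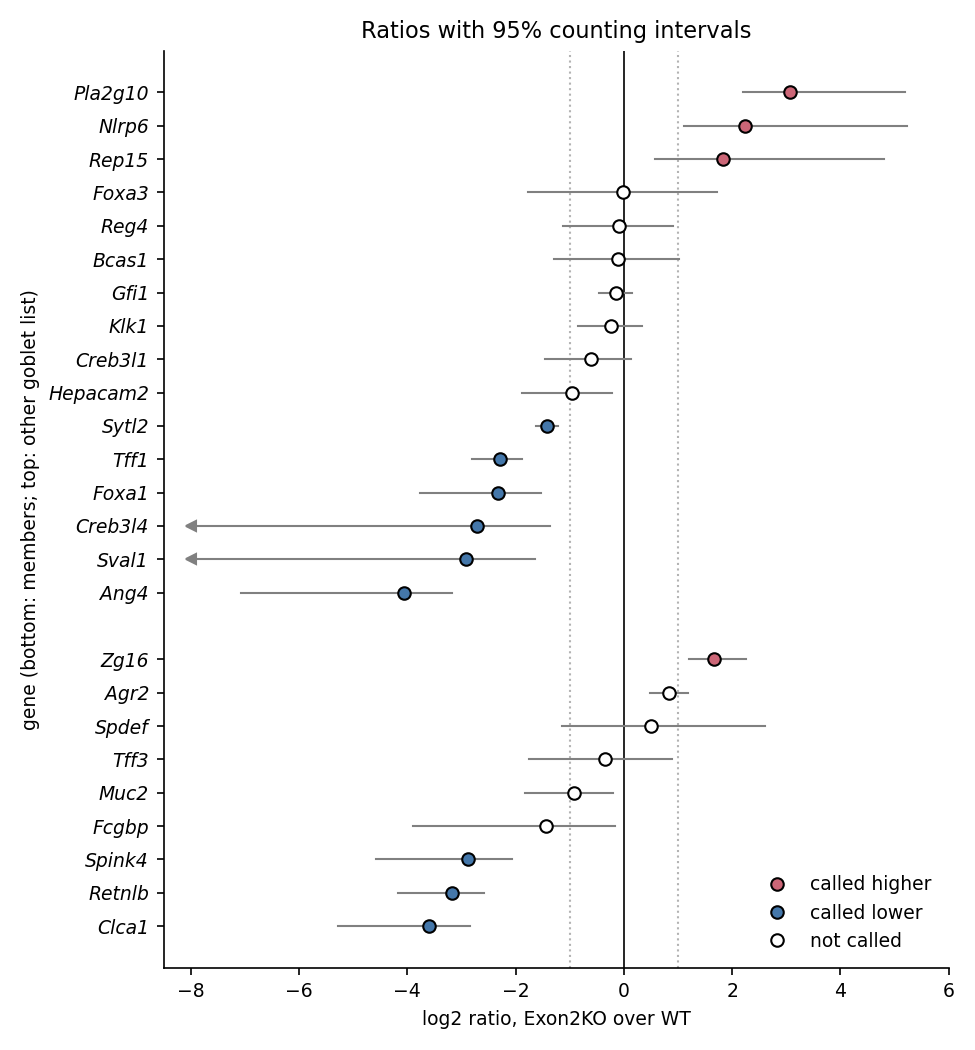
Log2 ratio of Exon2KO over WT for the 9 tested goblet cell genes (bottom) and the 16 tested genes of the wider goblet list (top), with 95% counting intervals computed without the prior count and dotted lines at 2-fold. Clca1, Retnlb and Spink4 lie below -2 and Zg16 above 1, while Ang4 and Pla2g10 mark the ends of the wider list.

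Mucus also depends on the sugars added to mucins. Of 17 genes for mucin O-glycosylation, 12 were tested, 2 were called higher, 0 lower, and the median was 0.33. C1galt1c1, the chaperone of the core 1 enzyme, had 623 and 718 reads, and Galnt12, which starts O-glycan chains, had 299 and 304. The 2 called genes, named after their values were seen, were Fut2 (3 and 18 reads) and B4galnt2 (2 and 32 reads), which add terminal sugars in the gut. B3gnt6 and Gcnt3, enzymes of intestinal mucin cores, had 0 reads in both libraries.

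Membrane-bound mucins of the cell surface were measured separately. Of 11 listed symbols 8 were in the table and 7 were tested, with 1 called higher, 2 lower and a median of -0.72. Muc13, a mucin of the epithelial brush border, rose from 27 to 216 reads (2.88, 2.39 to 3.61). Muc1 fell from 714 to 294 (-1.30, -1.51 to -1.11), and Muc16, named after its values were seen, had 15 and 0 reads. With the 0 set to 3 reads and the WT count taken as exact, Muc16 was 5.09-fold lower. The counting interval of its log2 ratio allowed a smaller fall, reaching up to -1.87. The lower Muc1 and the higher Muc13 thus gave membrane mucins no common direction.

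Most tested genes of the general and absorptive epithelial lists were called higher in the Exon2KO library. General epithelial genes are also expressed by goblet cells. Of 14 such genes 12 were tested, 11 were called higher, 0 lower, and the median was 2.70. Krt8 had 160 and 1604 reads and Krt19 had 81 and 1430. Krt18, a keratin, had 118 and 277 and Cldn7, a tight junction claudin, 38 and 353. Epcam, named after its values were seen, at a log2 ratio of -0.39, had 782 and 609 and was not called. Of 16 absorptive colon genes 14 were tested, 9 were called higher, 0 lower and 5 were not called, and the median was 1.78. Car1 rose from 24 to 1830 reads and Lypd8 from 129 to 1616, while Emp1 had 241 and 578 and Guca2a, the guanylin precursor, 103 and 481. Fabp2 (0 and 169) and Aqp8 (0 and 12) were named after their values were seen. The direction of these epithelial lists was already known from earlier results on these libraries.

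The goblet reads were also set beside those lists. The 10 goblet genes had 0.431 reads for each absorptive read in WT (551 and 1279 reads) and 0.0714 in Exon2KO (405 and 5672), an odds ratio of 0.166. Most of that difference lies in the absorptive reads, whose direction was known when the lists were chosen, so the ratio is a description and no test. Without Agr2, the goblet gene with the most reads over both libraries, it was 0.107. Without Car1, the absorptive gene with the most reads over both libraries, it was 0.240. Against the general epithelial list it was 0.185. As a share of all reads, the summed absorptive genes took 0.00786% in WT and 0.0368% in Exon2KO, and their part in the level of any goblet gene was not tested.

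**Figure D4:**
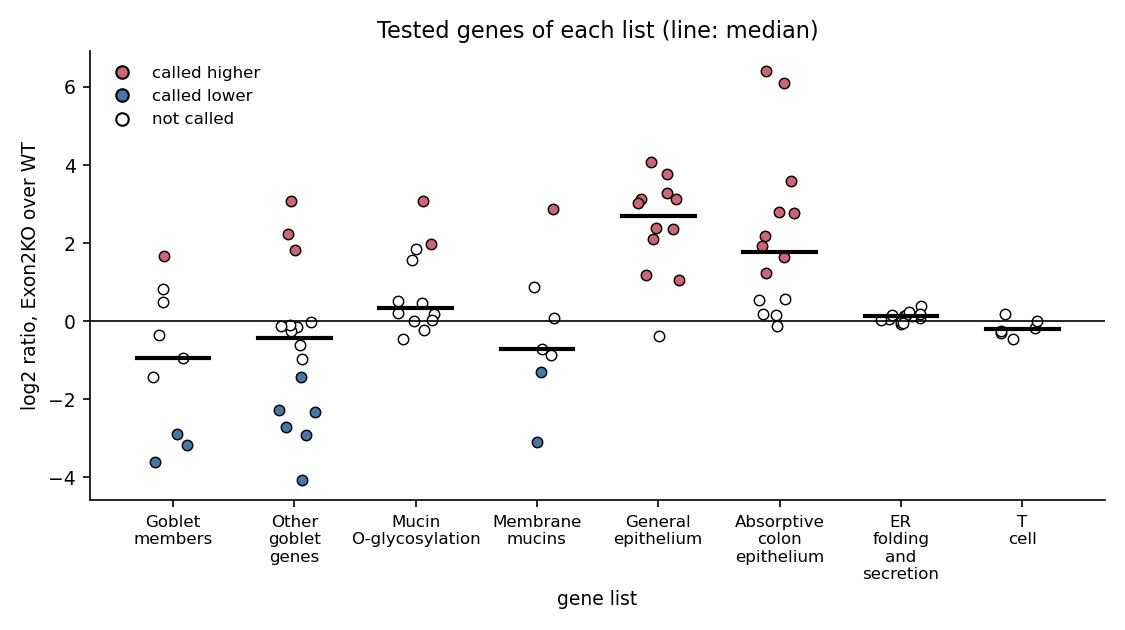
Log2 ratio of Exon2KO over WT for every tested gene of 8 lists, with the median of each list as a line and called genes coloured. The goblet genes (median -0.93) spread on both sides of 0, while general epithelial genes (2.70) and absorptive genes (1.78) lie mostly above it.

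Markers of other secretory and crypt cell types were measured in the same way. Of 9 enteroendocrine genes 3 were tested and 1 was called higher, Tph1, with 12 and 61 reads. Chga had 23 and 11 and was not called, and Pyy, Sct, Chgb, Neurod1 and Neurog3 had 0 in both. Of 6 tuft cell genes 1 was tested and 0 were called, the tested gene being Avil with 23 and 14 reads. Sh2d6 had 1 and 2, and Trpm5, Pou2f3 and Il25 had 0 reads in both. The 4 stem cell genes had 0 reads in WT and 5 in Exon2KO, 4 of them from Lgr5 and 1 from Ascl2. In the Paneth and deep crypt list of 6 genes, which includes Itln1, the 2 tested genes went apart, Kit from 149 to 53 reads and Lyz1 from 5 to 27. Kit also marks mast cells.

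Cytokines that act on goblet cells were read from the same libraries. Of 9 listed, 7 were tested, 3 were called higher, 0 lower, and the median was 1.01. Il10 had 14174 and 39614 reads, Il22, which drives epithelial defence genes, 45 and 269, and Il18 51 and 107. The type 2 cytokine genes, named after their values were seen, were scarce and had no common direction. Il13 had 1 and 9 reads (adjusted p of 0.055 in the binomial test), Il4 had 36 and 53 (adjusted p of 0.20) and Il5 had 39 and 23 (adjusted p of 0.10). None of these was called, and Il9, with 3 and 0 reads, was not tested. In the Notch pathway, which sets the balance of secretory and absorptive fates, 6 of 7 genes were tested and 1 was called each way, Notch2 higher (473 and 1088 reads) and Jag1, named after its values were seen, lower (44 and 17). Notch1, at 550 and 711 reads, was not called.

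The loci of the 10 genes were also examined for neighbours within 100 kb. Of 89 neighbouring loci 45 were tested, 3 were called higher and 5 lower, 8 in all, against 13.8% called either way over all tested genes. Next to Retnlb, at a gap of 44.8 kb, lies Trat1, which encodes an adaptor of the T cell receptor complex. Trat1 fell from 2203 reads to 136, a log2 ratio of -4.02 (-4.31 to -3.79), beside -3.17 for Retnlb. The pseudogene AC166114.1, which lies inside the span of Trat1, fell from 14 reads to 3.

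Agr2, which was not called, has called neighbours. Tspan13, a tetraspanin gene 10.5 kb away, fell from 7227 to 2394 reads (-1.62, -1.69 to -1.55), and Bzw2 fell from 2716 to 1208 (-1.19, -1.29 to -1.10), beside 0.83 for Agr2. The difference between these ratios was not tested. At Tff3, the paralog Tff1 at a gap of 31.8 kb was called lower and Tff3 was not, and Ubash3a, a T cell signalling gene, had 2461 and 1581 reads and was not called. The other called neighbours, named after their values were seen, were Qprt near Zg16 (120 and 249 reads), Odf2l near Clca1 (45 and 94) and Tstd1 near Itln1 (21 and 87). Whether counting used strand is not stated.

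**Figure D5:**
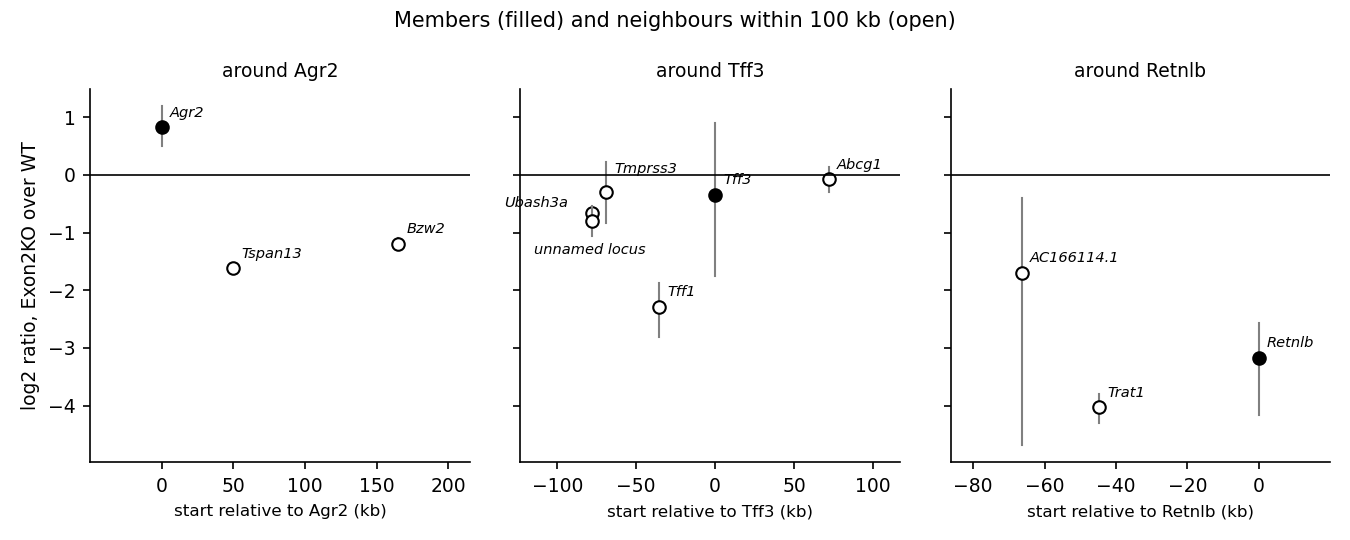
Log2 ratio of Exon2KO over WT, with 95% counting intervals, for Agr2, Tff3 and Retnlb (filled) and their tested neighbours within 100 kb (open), by distance between start sites in kb along the direction of the goblet gene. Trat1 lies low with Retnlb, Tspan13 and Bzw2 lie below -1 while Agr2, not called, is at 0.83, and Tff1 lies below Tff3.

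The calls depended on the spread between samples that is assumed. When edgeR's exact test was given a relative spread within a genotype (BCV) of 0.4, Clca1 alone of the goblet genes was still called, and the adjusted p was 0.064 for Retnlb, 0.14 for Spink4 and 0.87 for Zg16. With an assumed BCV of 0.2 the same 4 genes were called as by the binomial test.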

How the data were processed

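RNA was sequenced from cells labelled Tregs of the colon lamina propria, with 1 WT and 1 Exon2KO library. Per the labels' protocols, a Qiagen column kit and an NEBNext Ultra library preparation were used. The submitters' processing notes name HISAT2 2.0.5, StringTie 1.3.3b, featureCounts 1.5.0-p3, DESeq2 1.16.1 and mm10, without roles or order. The table deposited by the authors holds unscaled read counts for each gene, FPKM values (per gene length and library size), a log2 fold change and p-values of their own comparison, whose tool is not stated. Gene coordinates were those deposited, and all 10 goblet genes had identical coordinates in GENCODE M21 (GRCm38). In the table, 2 columns of scaled counts were not used.

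Scaling used edgeR's TMM method (edgeR 4.0.16, R 4.3.3), with a factor of 0.964 on the WT total and 1.04 on the Exon2KO total. A prior count of 2 entered each log2 ratio of Exon2KO to WT, and the 95% Clopper-Pearson intervals carry none. Genes reaching 10 reads over the 2 libraries were compared by an exact binomial test, because 1 library per group leaves edgeR's quasi-likelihood test no spread to estimate. Bounds use a floor of 3 reads per library, and folds from them take the other library's count as exact. FPKM intervals scale the Poisson interval of the count. Python 3.11.15 with scipy 1.17.1 and pandas 2.3.3 was used. The test was checked on simulated Poisson counts, which hold no spread between samples, so the check does not bear on such spread. Alternatives were scaling (DESeq2 1.42.0 size factors, total counts, upper quartile), the read minimum, the fold threshold, the prior count and an assumed BCV. The kind of 2-sided binomial p was added after the data were seen. Transcripts of GENCODE M21 were searched for shared windows of 50 bases. The 10 genes and all lists were chosen with earlier results of these data known. Named from each other list were called genes with at least 50 reads in 1 library, at most 4 by reads, and the 2 with the most reads. Other genes of a list were named after their values were seen.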

Additional observations from a re-analysis of the deposited data

How the results depend on the processing

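The directions of the 10 log2 ratios were the same under TMM, DESeq2 size factors, total counts, upper quartile and a prior count of 0.5. None of these changed a call of the goblet genes. With an assumed BCV of 0.4, 0 goblet genes were called higher and 1 lower, and among all genes tested 86 were called higher and 78 lower. With an assumed BCV of 0.2 these were 579 and 536, against 1251 and 1148 by the binomial test. A minimum of 50 reads left 12730 genes tested and gave 649 and 685. A fold threshold of 4 gave 499 and 408 and left 0 goblet genes higher. A threshold of 1.5 gave 1828 higher and 1847 lower. It called 2 goblet genes higher (Zg16 and Agr2) and 4 lower (Muc2, Clca1, Spink4 and Retnlb), as the thresholds themselves imply. The likelihood form of the binomial p, chosen after seeing the data, added Fcgbp, which makes 4 goblet genes lower. As a share of protein-coding reads the goblet genes held 0.00375% in WT and 0.00292% in Exon2KO, as the smaller totals imply. The odds ratio of goblet to absorptive reads moved from 0.166 to 0.107 without Agr2 and to 0.240 without Car1. Depth limits Itln1, Spdef, Tff3 and Fcgbp, each with under 15 reads in either library. No paired analysis was possible because a genotype is a single library, and no library could be left out.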
